A study of Mus musculus with 8 samples.

Results

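The genes described here are the 4 MEF2 transcription factors (MEF2A, MEF2B, MEF2C and MEF2D) and the 4 class IIa histone deacetylases (HDAC4, HDAC5, HDAC7 and HDAC9). They were taken as the 8 rows of the deposited count table, of 33514 rows in all, whose symbol is one of these names. RNA was sequenced from cultured adult cardiomyocytes, the contractile cells of the heart, of C57BL/6 mice: 4 libraries were transfected with an siRNA against Hoxa5, a homeobox transcription factor (siHoxa5), and 4 with a negative control siRNA (siN). Both groups were then exposed, from 24 h after transfection and for 24 h, to 100 µM phenylephrine, which stimulates alpha1-adrenergic receptors and makes cultured cardiomyocytes grow, with no untreated libraries. The age and number of the mice are not given, and the labels leave unsaid whether each repeat is its own mouse or its own dish. P-values therefore measure only the spread between these samples, which may be technical.

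MEF2 factors are MADS-box proteins that bind an A/T-rich DNA element in the control regions of many muscle genes, and in the heart they take part in both development and the growth response to stress. Class IIa histone deacetylases bind MEF2 through their amino-terminal part and keep it repressed; when kinases such as the CaM kinases and protein kinase D, which act downstream of alpha1-adrenergic receptors, phosphorylate them, they are bound by 14-3-3 proteins and leave the nucleus. In mice, loss of Hdac5 or Hdac9 makes the heart more sensitive to hypertrophic stress, and Hdac9 has been described as a gene that MEF2 itself activates in muscle.

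Library totals were 560190 to 619942 counts in siHoxa5 and 635824 to 658192 counts in siN, with siHoxa5 libraries 2 and 4 the smallest and farthest from siN on the first principal component. HOXA5, the siRNA target, had 1, 3, 4 and 1 counts in siHoxa5 libraries 1 to 4 and 2, 0, 3 and 3 counts in siN libraries 1 to 4. Its ratio of summed rates was 1.24 (exact 95% interval 0.426 to 3.70, counting error only), and the exact two-sided permutation test of its level gave p = 0.657 (n = 4 and 4). No lower level was seen in these few counts, which cannot show whether or how far the target was lowered. Each direction given is therefore that of the libraries labelled siHoxa5. Levels are given in CPM, counts scaled to a common library total, on library sizes scaled by the TMM method. The summed level of 10 cardiomyocyte markers was 61440 to 66854 CPM in siHoxa5 and 48076 to 51246 CPM in siN, and that of 9 fibroblast markers was 10961 to 12879 CPM in siHoxa5 and 10221 to 10909 CPM in siN. Most of the cardiomyocyte sum was MYH6 (mean 30432 CPM in siHoxa5, 21752 CPM in siN) and MYH7 (29350 and 24770 CPM). Most of the fibroblast sum was COL1A1 (10284 and 8861 CPM), so neither sum describes its whole list. Of 9 endothelial markers 7 were at 0 (PECAM1, CDH5, VWF, EGFL7, EMCN, TIE1 and CLDN5), and their sum was 3.64 to 32.7 CPM in siHoxa5 and 14.2 to 31.7 CPM in siN. Smooth muscle and pericyte markers summed to 12.8 to 26.1 CPM in siHoxa5 and 9.44 to 29.2 CPM in siN, and leukocyte markers to at most 1.82 CPM in siHoxa5 and 1.57 CPM in siN. The cardiomyocyte markers TNNI3, MYL2 and PLN were at 0 too, so a row at 0 in these files does not show that a gene is silent. The symbols in the table are spelled as those of human genes, and 16245 of the 33514 match a mouse symbol when case is ignored. Not given in the sources used here is which species' gene models served for counting. Row names such as C4orf54 and C12orf66 follow the naming of human genes. Each member is set beside the mouse gene of the same name. The coordinates, the levels per kilobase and a correction for transcript length and GC content hold only if reads were counted on mouse gene models.

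Of the 8 members, 6 passed the filter on low counts, 1 was at 0 in all libraries (MEF2B) and 1 was near 0 (HDAC4). MEF2C and HDAC9 were higher in the siHoxa5 libraries and passed the threshold of an adjusted p of 0.05 (edgeR quasi-likelihood test, Benjamini-Hochberg over 3020 tested genes), and no member passed in the other direction. HDAC9 met the low-count filter in the siHoxa5 libraries alone, so its place in the test followed from its high values there. Over all tested genes 7.12% passed in either direction, 3.74% as higher and 3.38% as lower. MEF2A, MEF2D, HDAC5 and HDAC7 did not pass.

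**Figure D1:**
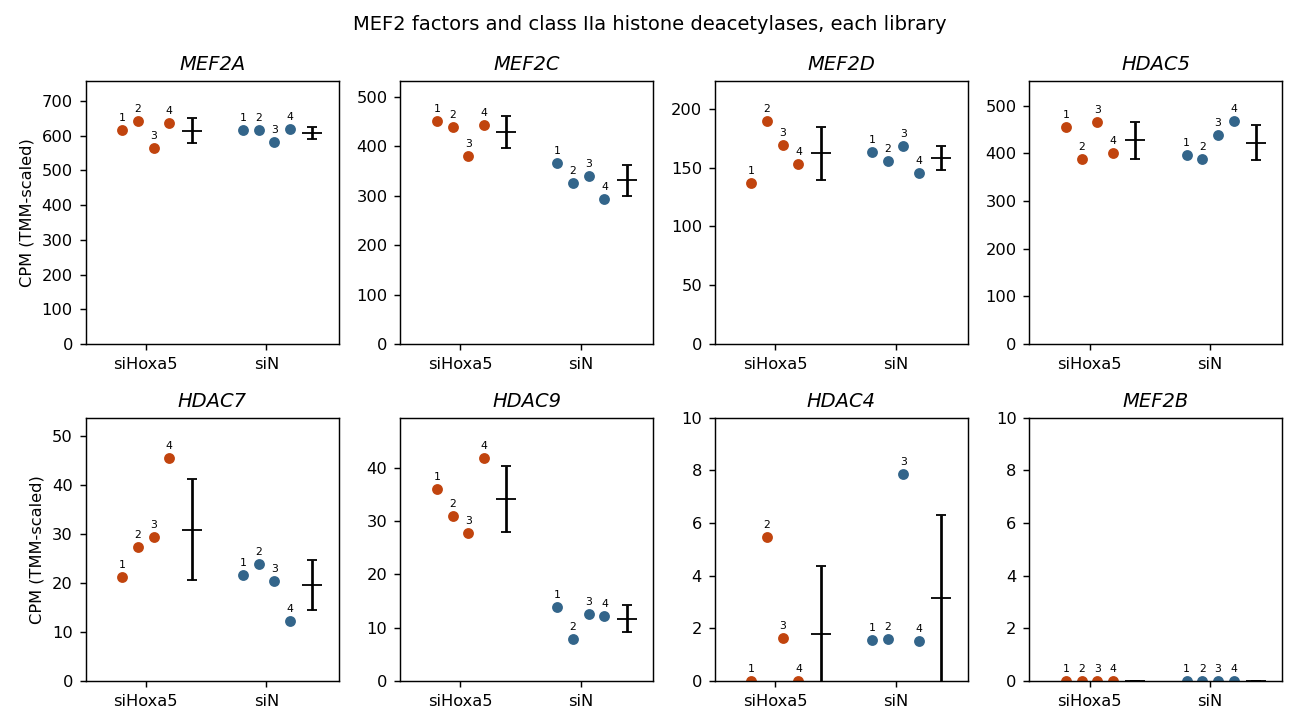
Level of each of the 8 members in CPM (vertical axes start at 0 and differ between panels) in the 4 siHoxa5 and the 4 siN libraries; each point is 1 library with its repeat number, and the bar beside each group gives the mean and SD. The siHoxa5 points lie above all siN points for MEF2C and HDAC9, and the groups overlap for MEF2A, MEF2D, HDAC5 and HDAC7.

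MEF2C, the MEF2 factor required for formation of the heart in the mouse embryo, corresponds to mouse Mef2c on chromosome 13 (GRCm38, 83504034 to 83667080, plus strand, GENCODE M21 gene ENSMUSG00000005583.16). It had 276, 241, 233 and 244 counts in siHoxa5 libraries 1 to 4 and 238, 205, 216 and 191 counts in siN libraries 1 to 4. On the CPM scale these were 451, 439, 380 and 444 in siHoxa5 and 366, 325, 340 and 293 in siN. The lowest siHoxa5 library, number 3, lay just above the highest siN library, number 1, so the groups did not overlap, as was true of 12.0% of all tested genes. The mean was 428 ± 32.6 CPM in siHoxa5 and 331 ± 30.6 CPM in siN (SD, n = 4 each). The edgeR log2 fold change was 0.37 with SE 0.09 (adjusted p = 0.00173), or 1.29-fold with a 95% interval of 1.15 to 1.46. The exact two-sided permutation test of the CPM gave p = 0.0286, the smallest value that 70 assignments of 8 libraries can give. The table also lists 2 antisense rows of this gene, MEF2C-AS1 and MEF2C-AS2, both at 0.

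MEF2A, the member with the most counts, corresponds to mouse Mef2a on chromosome 7 (67231163 to 67372858, minus strand, ENSMUSG00000030557.17). Its level was 616, 641, 564 and 637 CPM in siHoxa5 libraries 1 to 4 and 615, 616, 582 and 617 CPM in siN libraries 1 to 4. The siN range lay within that of siHoxa5, with library 3 the lowest in each. The fold change was 1.01 (95% interval 0.914 to 1.12, edgeR adjusted p = 0.946), an interval that leaves out changes of the size fitted for MEF2C.

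MEF2D, which in mouse hearts takes part in the response to stress, corresponds to Mef2d on chromosome 3 (88142372 to 88172086, plus strand, ENSMUSG00000001419.17). It was measured at 137, 189, 170 and 153 CPM in siHoxa5 and at 163, 156, 168 and 146 CPM in siN. The siHoxa5 libraries held both the lowest and the highest value, and the fold change was 1.02 (95% interval 0.861 to 1.22, edgeR adjusted p = 0.919). MEF2B, the most divergent of the 4 factors in sequence, corresponds to Mef2b on chromosome 8 (70139711 to 70167488, plus strand, ENSMUSG00000079033.10) and had no count in any library. Counting error alone would allow up to 3 counts, but since abundant heart genes are at 0 in these files too, this sets no upper limit on its level. A readthrough row that spans it, BORCS8-MEF2B, was at 0 too.

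HDAC9 corresponds to mouse Hdac9 on chromosome 12 (34047580 to 34917095, minus strand, ENSMUSG00000004698.10). The gene gives rise to a full-length deacetylase and to a shorter form, MITR, that lacks the catalytic domain but still binds MEF2; counts per gene do not separate these forms. It had 22, 17, 17 and 23 counts in siHoxa5 libraries 1 to 4 and 9, 5, 8 and 8 counts in siN libraries 1 to 4. On the CPM scale these were 35.9, 31.0, 27.7 and 41.8 in siHoxa5 and 13.8, 7.94, 12.6 and 12.3 in siN. The groups did not overlap. The mean was 34.1 ± 6.15 CPM in siHoxa5 and 11.7 ± 2.57 CPM in siN (SD, n = 4 each). The edgeR log2 fold change was 1.53 with SE 0.34 (adjusted p = 0.000604), or 2.88-fold with a 95% interval of 1.81 to 4.58. The exact two-sided permutation test gave p = 0.0286 (n = 4 and 4). The filter asked for about 10 counts in a library of median size, 15.9 CPM, in 4 libraries; 4 siHoxa5 libraries and 0 siN libraries met it, so HDAC9 entered the test through the group in which it was high. With no filter (7924 rows tested) its log2 fold change was 1.54 (edgeR adjusted p = 0.00105), and with a filter on the mean over all 8 libraries, at least 20 CPM, it was 1.53 (edgeR adjusted p = 0.000326). The siN mean alone, 11.7 CPM, lay below 20 CPM, so HDAC9 met that filter through its siHoxa5 values too. Summed, 79 counts in siHoxa5 stood against 30 counts in siN, 2.91 as a ratio of rates (exact 95% interval 1.89 to 4.59, counting error only).

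HDAC5, the class IIa enzyme with the most counts, corresponds to Hdac5 on chromosome 11 (102194432 to 102230166, minus strand, ENSMUSG00000008855.17). Its level was 456, 388, 465 and 400 CPM in siHoxa5 libraries 1 to 4 and 397, 387, 438 and 467 CPM in siN libraries 1 to 4. The ranges were nearly the same, and the fold change was 1.01 (95% interval 0.903 to 1.14, edgeR adjusted p = 0.935).

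HDAC7, known for its role in endothelial cells and in thymocytes, corresponds to Hdac7 on chromosome 15 (97792664 to 97844502, minus strand, ENSMUSG00000022475.19). It had 13, 15, 18 and 25 counts in siHoxa5 and 14, 15, 13 and 8 counts in siN. The highest value was that of siHoxa5 library 4, 45.5 CPM, and the lowest that of siN library 4, 12.3 CPM; the other 6 libraries lay between 20.5 and 29.3 CPM. The fold change was 1.57 (95% interval 1.02 to 2.40, unadjusted p = 0.0397, edgeR adjusted p = 0.221), and the exact two-sided permutation test gave p = 0.0857 (n = 4 and 4). Without siHoxa5 library 4 its log2 fold change was 0.41, against 0.65 with all libraries. HDAC4, known in mice for restraining the growth of cartilage cells, corresponds to Hdac4 on chromosome 1 (91928779 to 92195699, minus strand, ENSMUSG00000026313.16). It had 0, 3, 1 and 0 counts in siHoxa5 and 1, 1, 5 and 1 counts in siN, 0.552 as a ratio of summed rates (exact 95% interval 0.122 to 2.06), and was too low to enter the test over all genes.

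**Figure D2:**
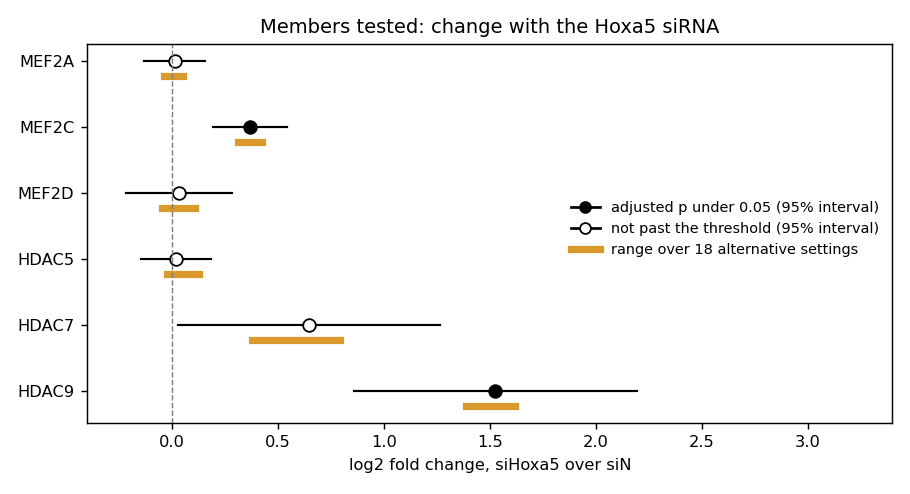
Log2 fold change of siHoxa5 over siN (horizontal axis) for the 6 members tested, with the 95% interval as a thin line; filled points passed the threshold of the edgeR test, and the thick bar below each gives the range over 18 alternative settings. MEF2C (0.31 to 0.43), HDAC9 (1.39 to 1.62) and HDAC7 (0.38 to 0.80), which passed the threshold in none, stayed above 0 in every setting run, while the ranges of MEF2A, MEF2D and HDAC5 included 0.

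Under all 18 alternative settings, which changed the scaling, the filter, the test, a length and GC correction, a block on the repeat number, or left out 1 or 2 libraries, MEF2C and HDAC9 kept their direction and passed the threshold. The settings reuse the same libraries and are no separate support. HDAC9 met the main low-count filter in the siHoxa5 libraries alone. Without siHoxa5 libraries 2 and 4 together, the log2 fold change was 0.33 for MEF2C (edgeR adjusted p = 0.0228) and 1.44 for HDAC9 (edgeR adjusted p = 0.0200). Cardiomyocyte markers moved with both genes: 4 of the 7 tested (MYH6, MYH7, ACTN2 and TTN) rose and 1 (TNNT2) fell, where 3.74% of all tested genes rose and 3.38% fell. The TNNT2 call held in 10 of the 18 settings. Of 3 fibroblast markers tested, COL1A1, a collagen chain, rose by 0.21 on the log2 scale (edgeR adjusted p = 0.000195), and COL1A2 and DDR2 did not pass. Fewer cells of a type and less RNA per cell cannot be told apart in these bulk libraries, and the part of cell composition in the MEF2C and HDAC9 values was not tested.

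The make-up of each family moved accordingly. MEF2C supplied 34.1% to 37.4% of all MEF2 counts in siHoxa5 libraries and 27.7% to 32.0% in siN libraries, and MEF2A supplied 50.5% to 51.6% in siHoxa5 and 53.4% to 58.5% in siN. Summed over the family, MEF2 transcripts were at 1205 ± 66.6 CPM in siHoxa5 and 1097 ± 36.5 CPM in siN (SD, n = 4 each), and the groups overlapped, with siHoxa5 library 3 at 1114 CPM and siN library 1 at 1144 CPM. Among class IIa histone deacetylases HDAC9 supplied 5.30% to 8.58% of the counts in siHoxa5 and 1.89% to 3.19% in siN, and HDAC5 supplied 82.1% to 88.9% in siHoxa5 and 91.4% to 94.7% in siN. The class summed to 494 ± 31.8 CPM in siHoxa5 and 457 ± 34.8 CPM in siN (SD, n = 4 each), groups that overlapped. HDAC5 thus had most of the class IIa counts in every library. How fully the reads of each gene were counted is not known, so the shares compare libraries and do not rank transcripts.

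**Figure D3:**
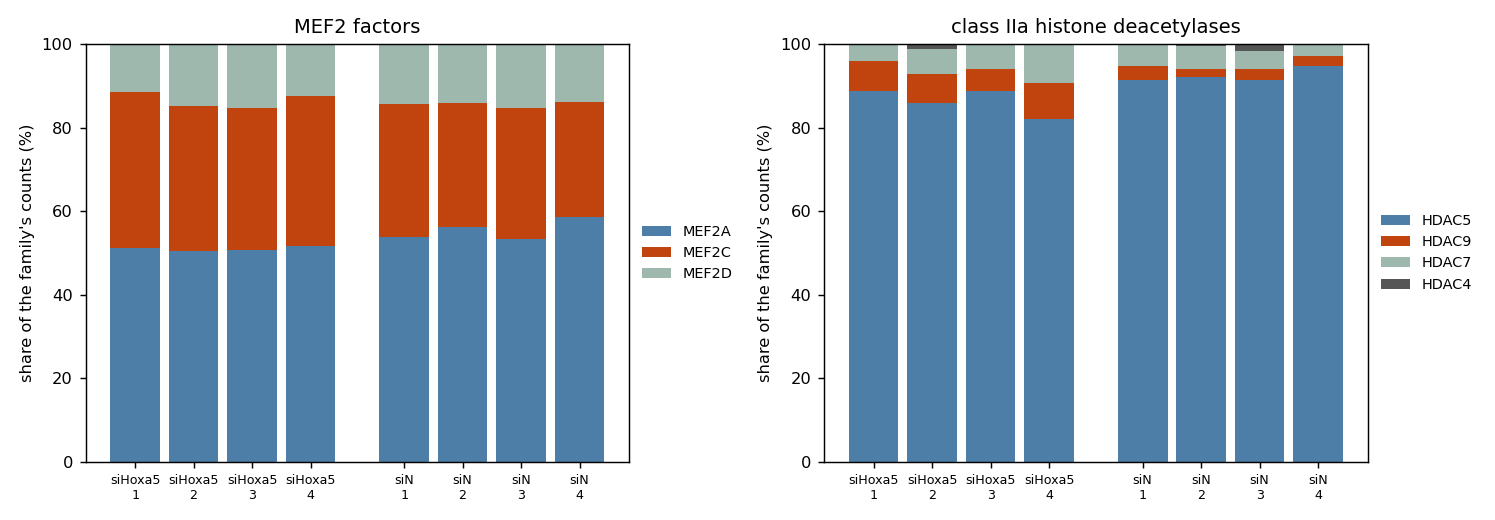
Share of each family's counts (vertical axis, percent) taken by each member in the 4 siHoxa5 libraries, left, and the 4 siN libraries, right, of each panel; MEF2B, at 0, is not drawn. The MEF2C share (34.1% to 37.4% in siHoxa5, 27.7% to 32.0% in siN) and the HDAC9 share (5.30% to 8.58% in siHoxa5, 1.89% to 3.19% in siN) did not overlap between groups.

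Ratios within a library do not depend on scaling. There were 0.732, 0.685, 0.673 and 0.697 MEF2C counts per MEF2A count in siHoxa5 libraries 1 to 4 and 0.595, 0.528, 0.584 and 0.474 in siN libraries 1 to 4. For HDAC9 per HDAC5 the ratios were 0.0789, 0.0798, 0.0596 and 0.105 in siHoxa5 and 0.0349, 0.0205, 0.0288 and 0.0262 in siN. Both ratios were higher in every siHoxa5 library than in any siN library (exact two-sided permutation p = 0.0286 each, n = 4 and 4; adjusted over the 4 ratios compared, 0.0571). MEF2C per MEF2D (2.69 ± 0.497 in siHoxa5, 2.09 ± 0.109 in siN, exact permutation p = 0.0571, adjusted 0.0762) and HDAC9 per HDAC7 (1.17 ± 0.359 in siHoxa5, 0.648 ± 0.273 in siN, exact permutation p = 0.0857, adjusted 0.0857) overlapped between groups (SD, n = 4 each). None of the 4 adjusted values was below 0.05. Each of these ratios has MEF2C or HDAC9 on top, the members already seen to be higher. The ratios restate those differences on the same counts and are no separate support.

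Per kilobase of the longest coding transcript of the mouse gene, levels in siHoxa5 fell in the order MEF2A (110.9 ± 6.37 CPM per kb), HDAC5 (88.0 ± 7.96), MEF2C (68.2 ± 5.20), MEF2D (30.0 ± 4.16), HDAC7 (7.30 ± 2.45), HDAC9 (4.30 ± 0.775) and HDAC4 (0.219 ± 0.318; SD, n = 4 each). The order was the same in siN, where MEF2C stood at 52.7 ± 4.88 and HDAC9 at 1.47 ± 0.324 CPM per kb. Neighbours down to HDAC7 did not overlap over the 4 libraries of either group; HDAC7 and HDAC9 overlapped in siHoxa5 and did not in siN. These levels assume that reads were assigned along the whole mouse transcript, which the sources used here do not show.

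For a view of the control regions of the members, RefSeq promoters (GRCm38.p6) of all 8 genes were read as 14 windows of the 250 bases before a start site. The MEF2 consensus element was found on either strand in 1 of the 14 windows, that of Hdac5, and in 2.92% of 32817 promoter windows of the mouse genome. The letters TAATTA, a core that many homeodomain proteins bind and that reads the same on both strands, were found in 1 of the 14 windows, 1 of the 3 of Mef2c, and in 4.85% of all windows. The 4 windows below are those of Hdac9, the member with the largest difference, at chr12:34917096-34917345 and chr12:34528890-34529139 (both minus strand), that of Mef2c with TAATTA at chr13:83523406-83523655 (plus strand), and that of Hdac5 with the MEF2 element at chr11:102230173-102230422 (minus strand). They are written 5′ to 3′ in the direction of transcription, with the matched letters in capitals.
Hdac9, distal start: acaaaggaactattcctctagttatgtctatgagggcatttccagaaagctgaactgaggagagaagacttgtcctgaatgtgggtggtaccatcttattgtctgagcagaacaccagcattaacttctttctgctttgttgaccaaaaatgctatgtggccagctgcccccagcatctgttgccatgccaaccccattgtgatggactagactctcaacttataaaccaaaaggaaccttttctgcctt
Hdac9, internal start: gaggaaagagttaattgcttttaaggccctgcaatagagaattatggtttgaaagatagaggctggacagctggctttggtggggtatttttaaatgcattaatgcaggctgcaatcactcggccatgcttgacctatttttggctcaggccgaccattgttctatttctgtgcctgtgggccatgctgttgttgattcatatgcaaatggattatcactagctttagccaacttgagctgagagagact
Mef2c, second start: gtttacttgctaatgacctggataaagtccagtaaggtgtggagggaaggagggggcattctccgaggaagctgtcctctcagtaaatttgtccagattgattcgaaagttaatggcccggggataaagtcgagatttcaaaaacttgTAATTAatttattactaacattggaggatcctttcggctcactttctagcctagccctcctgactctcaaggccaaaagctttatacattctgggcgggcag
Hdac5: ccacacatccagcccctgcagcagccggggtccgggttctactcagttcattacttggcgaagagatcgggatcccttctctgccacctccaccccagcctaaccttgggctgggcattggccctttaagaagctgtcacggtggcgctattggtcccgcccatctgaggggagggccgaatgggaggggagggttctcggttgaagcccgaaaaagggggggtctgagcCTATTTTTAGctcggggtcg
The TAATTA of Mef2c begins 102 bases before the start site and the MEF2 element of Hdac5 begins 20 bases before it. Both Hdac9 windows lack an exact match to either element, and near matches were not searched for. A match is a description of letters; which start sites were used in these cells was not measured.

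The genes whose level followed each of the 2 members most closely over the 8 libraries were ranked by Pearson correlation of log2 CPM among 2787 genes of at least 20 CPM. For MEF2C these were HAT1, a histone acetyltransferase (r = 0.961), RPS6KB1, the S6 kinase (0.947), TRIB2, a pseudokinase (0.936), SRSF3, a splicing factor (0.912), and NDUFS1, a subunit of respiratory complex I (0.911). For HDAC9 these were EFNA5, an ephrin ligand (0.954), HAT1 (0.949), MYH6, the alpha myosin heavy chain (0.946), BZW2 (0.943) and PTPRD, a receptor phosphatase (0.942). The points share 2 groups, so part of each r is the group difference. With the group means removed, r for the genes listed for MEF2C was 0.687 (NDUFS1) to 0.859 (TRIB2), with HAT1 at 0.840. For those listed for HDAC9 it was 0.272 (MYH6) to 0.773 (EFNA5). The genes were picked as the highest of 2787 over the same 8 libraries, so high values are partly set by the picking, and no r was tested. HAT1 itself differed by 0.39 on the log2 scale, SE 0.07 (edgeR adjusted p = 5.35e-05).

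Genes linked to class IIa histone deacetylases or MEF2, together with other deacetylases, were read from 6 lists of 82 genes in all, of which 50 were tested. None of the 50 passed the threshold, and 4 (8%) had an unadjusted p under 0.05, against 19.6% of all tested genes (edgeR). DESeq2 and limma-voom called none of them either, while other settings called 1 to 3 of CTBP1, PPP1CB and YWHAH: upper quartile scaling, a mean of at least 20 CPM, the replicate block, the length and GC correction, and leaving out siHoxa5 library 1, siHoxa5 library 4 or siN library 1. Their median log2 fold change was 0.04, against -0.00 over all tested genes.

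Among other deacetylases, a list that includes the sirtuins SIRT1 to SIRT7, 5 of 14 listed were tested and 7 were at 0. HDAC1, a class I nuclear enzyme, had 168 ± 14.1 CPM in siHoxa5 and 198.5 ± 30.7 CPM in siN (SD, n = 4 each), or -0.23 (SE 0.12) on the log2 scale. HDAC3, the class I enzyme through which class IIa members are thought to deacetylate, had 0.20 (SE 0.20) and HDAC8 0.28 (SE 0.23), on the same scale. Of 20 kinases linked to the phosphorylation of class IIa histone deacetylases, directly or upstream, 10 were tested. The smallest p-values were those of MARK3 (0.53, SE 0.27), CAMK2B (-0.60, SE 0.33) and CAMK2G (-0.14, SE 0.09). Of 8 genes of 14-3-3 proteins and nuclear export 7 were tested; YWHAH stood at -0.15 on the log2 scale, SE 0.06 (edgeR adjusted p = 0.0882), SFN -0.63 (SE 0.29) and YWHAQ 0.09 (SE 0.06).

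Of 7 phosphatase and ankyrin-repeat partners 6 were tested. PPP1CB, a catalytic subunit of protein phosphatase 1, had 878 ± 18.2 CPM in siHoxa5 and 996 ± 40.3 CPM in siN (SD, n = 4 each; log2 fold change -0.18, edgeR adjusted p = 0.0544), PPP1R12A had 0.07 (SE 0.06) and ANKRA2 -0.30 (SE 0.36) on the log2 scale. Of 10 corepressor partners 8 were tested, and CTBP1, a corepressor that binds the MITR form of HDAC9, had 66.5 ± 9.94 CPM in siHoxa5 and 43.2 ± 8.86 CPM in siN (SD, n = 4 each; log2 fold change 0.62, edgeR adjusted p = 0.0531). TBL1XR1 had 0.36 (SE 0.22) and CTBP2 -0.24 (SE 0.16). PPP1CB and CTBP1 lay next to the threshold and passed it in some settings, both of them with the length and GC trend removed. Of 23 activators and coactivators of MEF2 14 were tested, with PPP3CB, a catalytic subunit of calcineurin, at 0.09 (SE 0.06), KAT2B at 0.20 (SE 0.18) and HAND2 at -0.14 (SE 0.16).

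Of 28 genes known as MEF2 targets in muscle, 27 had a row, 14 were at 0 and 10 were tested. Past the threshold, 4 of the 10 rose and 1 fell, where 3.74% of all tested genes rose and 3.38% fell. Log2 fold changes were above 0 for 5 of the 10 and below 0 for the other 5, with a median of 0.10 against -0.00 over all tested genes; the list holds heart genes whose changes were known when it was drawn up, and MYH6, MYH7 and TNNT2, like TNNI3 and MYL2 at 0, are in the cardiomyocyte marker list too. PPARGC1A, the coactivator PGC-1alpha, had 158, 169, 149 and 115 counts in siHoxa5 libraries 1 to 4 and 68, 81, 70 and 62 counts in siN libraries 1 to 4 (1.21 on the log2 scale, SE 0.13, edgeR adjusted p = 9.64e-15). MYH6 (0.48), MYH7 (0.24) and ACTA1, the skeletal alpha-actin (0.22, edgeR adjusted p = 0.0137), rose less, and TNNT2, cardiac troponin T, fell by 0.44 on the log2 scale (edgeR adjusted p = 0.0257). ACTA1 did not pass without siN library 1 (0.19) or 4 (0.21). TNNT2 did not pass with DESeq2 or with the length and GC trend removed, nor when 1 library was left out: siHoxa5 2 (-0.34), siHoxa5 4 (-0.38), siN 2 (-0.43), siN 3 (-0.36) or siN 4 (-0.40). Without siHoxa5 libraries 2 and 4 together it stood at -0.22 and did not pass. The nuclear receptor NR4A1 had -0.77 (SE 0.33, edgeR adjusted p = 0.149), while MYOM1 had 0.47 (SE 0.37) and DES -0.15 (SE 0.13).

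**Figure D4:**
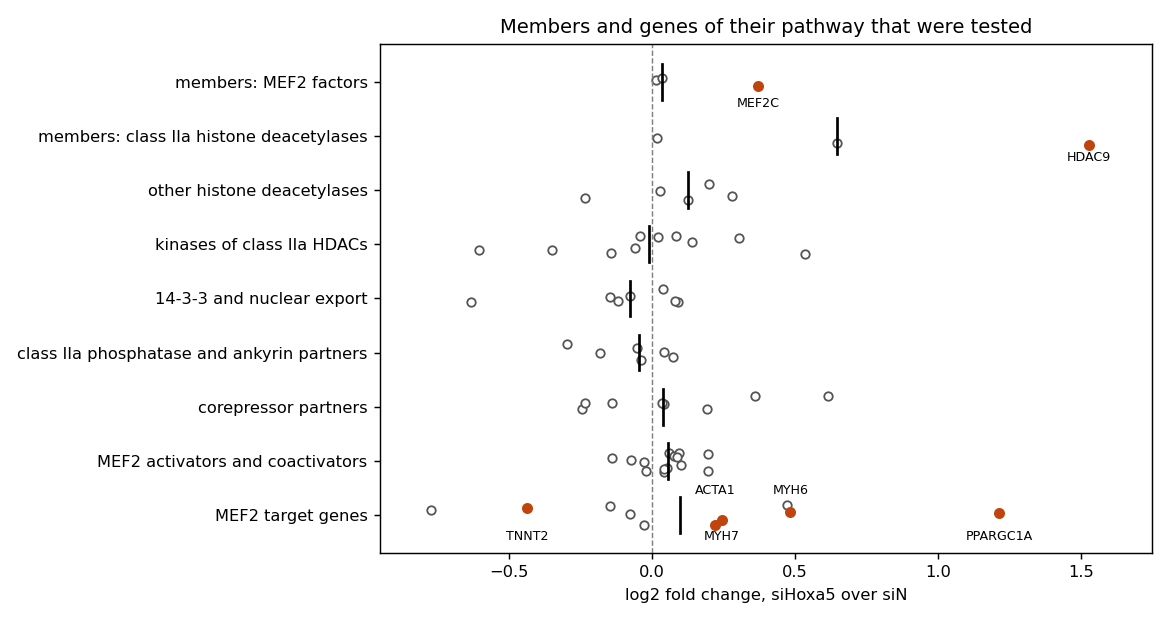
Log2 fold change of siHoxa5 over siN (horizontal axis) for each tested gene of the member families and of 7 lists of related genes (rows); filled points passed the threshold of the edgeR test and are named, open points did not, and the vertical bar is the list's median. Filled points stand at MEF2C (0.37) and HDAC9 (1.53) among members and at 5 MEF2 target genes, with none among the 50 tested genes of the other lists.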

How the data were processed

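The 8 libraries were grouped by the titles in the labels (4 siHoxa5, 4 siN). The authors deposited estimated counts per gene symbol that are not normalized: whole numbers except in 4 rows. The tools named in the submitters' processing notes are STAR 2.6.1b, HTSeq, FastQC 0.11.8 and R 3.5.3, with the build mm10. Not given in the sources used here are the annotation, the strand setting and how reads shared by paralogous members were counted.

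Counts were rounded and tested with edgeR 4.0.16 (limma 3.58.1, R 4.3.3): TMM scaling, filterByExpr (minimum count 10, minimum total 15), robust quasi-likelihood fit on all 8 libraries with group as the only term, Benjamini-Hochberg adjustment. The filter kept 3020 of 33514 rows. Standard errors and 95% intervals were derived from the F statistics. DESeq2 1.42.0 and limma-voom were alternatives.

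All members were named, with the list genes past the threshold. In each list, the 3 genes of lowest p among those that did not pass were named too. The members, lists and ratios were chosen with earlier results of these data known. Lengths and coordinates are from GENCODE M21 (GRCm38), promoters from RefSeq. Depth limits the precision of HDAC4, HDAC7 and HDAC9; counting intervals cover counting error only.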

Additional observations from a re-analysis of the deposited data

Results flagged for a closer look

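Of 28 groups of 4 libraries checked for a single library far from the rest, 3 stood out. Chance gives about 1 in 20 for values without ties, a rate that does not hold for rows of a few counts such as HDAC4. MEF2A was lowest in siN library 3, at 582 CPM, where the others had 615 to 617 CPM. MEF2C was lowest among siHoxa5 libraries in library 3, at 380 CPM, where the others had 439 to 451 CPM; without that library its log2 fold change was 0.43. HDAC4 was highest among siN libraries in library 3, at 7.87 CPM (5 counts), where the others had 1 count each.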

How the results depend on the processing

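Alternatives were set with earlier results known, except that leaving out siHoxa5 libraries 2 and 4 together was added after seeing the data. The 2 member calls, MEF2C and HDAC9, held in the 17 alternatives set at the start and in the added one; leaving out 1 library gave log2 fold changes of 0.31 to 0.43 for MEF2C and 1.39 to 1.62 for HDAC9. Values near 0 changed sign: MEF2A was -0.029 with the length and GC trend removed and -0.038 without siHoxa5 libraries 2 and 4, and -0.0072 to 0.054 when 1 library was left out; MEF2D was -0.038 without siHoxa5 libraries 2 and 4, and -0.044 to 0.11 when 1 was left out; HDAC5 was -0.024 to 0.071 when 1 was left out. Over all genes, 215 passed; DESeq2 called 112, and 143 passed without siHoxa5 libraries 2 and 4, of which 118 were among the 215. Leaving out 1 library gave 145 to 260. Of the list genes 5 passed; 8 did with the replicate block (CTBP1, PPP1CB and YWHAH besides), 4 with DESeq2, and 3 to 7 when 1 library was left out, the 3 being without siN library 4. The labels do not say that the repeat numbers mark pairs, so they were not taken as such. Same-numbered libraries deviated from their group means with correlations of -0.02 to 0.07. The siHoxa5 libraries 1 and 4 correlated best with the siN library of their own number, and 2 and 3 did not. Counting error lowers such correlations, so they cannot exclude pairs. The replicate block called 250 genes over all, with MEF2C and HDAC9 among them. Depth limits the rest: log2 fold changes had a standard error of 0.17 in the median, and HDAC9 in siN rests on 30 counts. The cause was not tested.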
